A study of Homo sapiens with 12 samples.

Results

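Tumour B cells show T cells, natural killer (NK) cells and macrophages a set of surface proteins that either stimulate or restrain them, and 10 genes of this kind were followed in venetoclax-resistant lymphoma cells. They are *CD274* (PD-L1), *PDCD1LG2* (PD-L2), *CD80*, *CD86*, *ICOSLG*, *CD70*, *TNFRSF14*, *CD58*, *CD47* and *LGALS9*, and they were found by their GENCODE symbols as 10 of the 60675 gene identifiers in the count files. All 10 were present, and 9 passed the filter on low counts in SUDHL6 and 8 in SUDHL16.

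SUDHL6 and SUDHL16 are human cell lines of diffuse large B-cell lymphoma (DLBCL). From each, a line was derived by long exposure to rising doses of venetoclax (ABT-199), an inhibitor of the anti-apoptotic protein BCL2, until it grew at 10 times the IC50 of the parental line. RNA was sequenced from 3 libraries of each of the 4 groups, which are parental SUDHL6 (CE-7, CE-8 and CE-9), resistant SUDHL6 (CE-10, CE-11 and CE-12), parental SUDHL16 (CE-25, CE-26 and CE-27) and resistant SUDHL16 (CE-28, CE-29 and CE-30). Each resistant line is a single derivation, so a change that came with resistance and a change particular to that derivation cannot be told apart. No label says that the libraries came from separate cultures, and the p-values then measure only the spread between libraries. SUDHL6 was prepared with the NEBNext Ultra II kit and run on a HiSeq instrument. SUDHL16 was prepared with a stranded, RiboZero-depleted Illumina total RNA kit and run on a NovaSeq. Differences between the lines, in level or in change, therefore cannot be told apart from kit and instrument. The cells were grown alone, without the T cells or macrophages that these ligands meet in a tumour.

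Engagement of the T cell receptor activates a T cell fully only when a second, costimulatory signal arrives, and *CD80* and *CD86* are the main source of it on B cells through the receptor CD28. The same pair also binds the inhibitory receptor CTLA4, while PD-L1 and PD-L2 inhibit through PDCD1. *CD70* and *ICOSLG* stimulate through CD27 and ICOS, *CD58* strengthens adhesion through CD2, *TNFRSF14* (HVEM) can inhibit through BTLA, *CD47* tells macrophages through SIRPA not to engulf the cell, and *LGALS9* encodes galectin-9, a secreted ligand of HAVCR2 (TIM-3). In B-cell lymphomas *CD58* and *TNFRSF14* are recurrent targets of inactivating mutations.

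The SUDHL6 libraries held 33992784 to 40885665 counts, of which 95.8% to 96.0% were on protein-coding genes. Among SUDHL16, CE-26 held 4131927 counts and the other 5 libraries 14335460 to 22068221. CE-26 also stood apart in composition, with 55.4% of its counts on protein-coding genes against 84.3% to 90.2% and 31.9% on identifiers outside GENCODE 44. Of 29111 genes at 0 in the other 5 SUDHL16 libraries, 35.7% had reads in CE-26, with a median of 4 reads, whereas the share was 2.45% to 8.59% when each other library was set against the rest without CE-26. A few reads of a silent gene in CE-26 are therefore no measure of parental SUDHL16, and the fitted changes in SUDHL16 are given with and without it.

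The B cell markers *MS4A1*, *CD79A*, *CD79B* and *PAX5* were expressed in each group, with mean levels from 310 CPM (read counts scaled to library size with TMM) for *PAX5* to 2140 CPM for *MS4A1*, both in resistant SUDHL6, and 0 of these 4 were called in either line, with or without CE-26. Reads in these cultures' RNA are summed over cells, so fewer cells with a transcript and fewer transcripts per cell cannot be told apart.

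**Figure D1:**
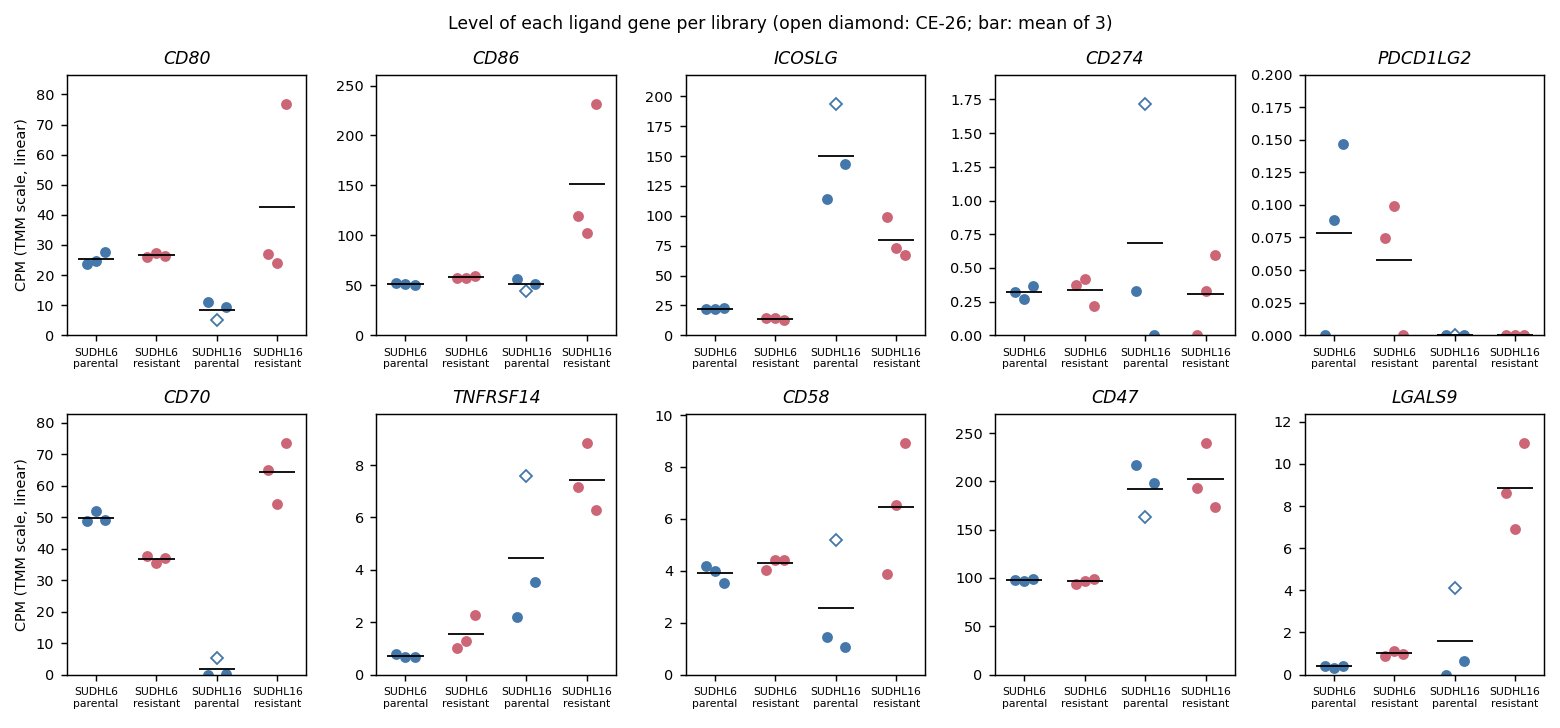
Level of each of the 10 genes in every library, in CPM on a linear axis that starts at 0, with 3 libraries per group, bars at the group means and CE-26 drawn as an open diamond. *CD70* lies at 0, 5.17 and 0.124 CPM in parental SUDHL16 and at 54.1 to 73.7 CPM in the resistant libraries, whereas in SUDHL6 it lies at 48.8 to 51.9 CPM in parental and 35.6 to 37.6 CPM in resistant libraries.

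A gene was called when its adjusted p was under 0.05 (edgeR quasi-likelihood test, Benjamini-Hochberg over all genes tested) and its change was at least 1.5-fold. In SUDHL6, *TNFRSF14* and *LGALS9* rose and *ICOSLG* fell, which is 2 higher and 1 lower of the 9 members tested. Among all 16662 genes tested there, 8.96% were called, 4.31% higher and 4.65% lower. In SUDHL16, *CD70*, *CD80* and *CD86* rose, which is 3 higher and 0 lower of 8, where 5.30% of all 15708 genes tested were called, 3.20% higher and 2.10% lower. Without CE-26, *CD58* and *LGALS9* were called as well, which is 5 higher of 8, beside 10.0% of 16280 genes called, 6.73% higher and 3.32% lower. The median log2 change of the members tested was 0.08 in SUDHL6, 1.51 in SUDHL16 and 1.79 without CE-26, and that of all genes tested was -4.3e-05, -0.02 and 0.05. In SUDHL16, *CD70* and *LGALS9* could pass the filter only through the resistant libraries, so these counts and medians describe the tested members and are no test of the set.

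**Figure D2:**
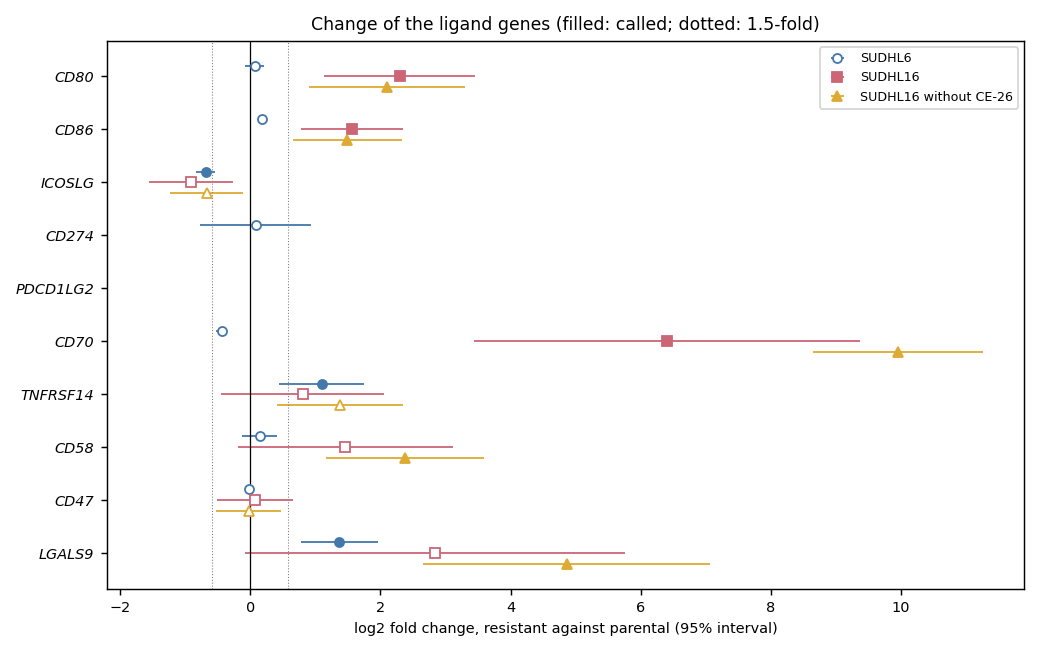
The log2 fold change of resistant against parental cells for each gene tested, with its 95% interval, in SUDHL6 (circles), SUDHL16 (squares) and SUDHL16 without CE-26 (triangles). Filled symbols were called and dotted lines mark 1.5-fold. The interval of *CD70* is 3.44 to 9.37 for SUDHL16, against -0.53 to -0.35 for SUDHL6, and *CD47* sits close to 0 in all 3 fits.

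*CD70* encodes a TNF superfamily ligand that activated B cells carry and that stimulates T cells through CD27. The gene (ENSG00000125726) spans chr19:6583183-6604103 on the minus strand of GRCh38 and has 3 exons in its canonical transcript. In parental SUDHL16 it had 0 reads in CE-25, 15 in CE-26 and 2 in CE-27, and in resistant SUDHL16 it had 972, 1150 and 1732 reads in CE-28, CE-29 and CE-30, or 65.1, 54.1 and 73.7 CPM. The groups did not overlap, and the largest parental value was that of the library with reads on otherwise silent genes. The log2 change was 6.40 (SE 1.30, edgeR quasi-likelihood adjusted p = 0.0275). Set against each other as reads per library total, the resistant libraries held 144 times as much as the parental libraries (17 reads against 3854, exact 95% interval 89.9 to 248, counting error only). Without CE-26 there were 2 parental reads, the ratio was 1084 (300 to 8953), and the edgeR adjusted p was 6.42e-05 with a fitted log2 change of 9.96 that depends on the prior count.

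In SUDHL6 *CD70* was high in both states. It stood at 48.8, 51.9 and 49.0 CPM in the parental libraries and at 37.6, 35.6 and 37.1 CPM in the resistant ones. Every resistant library was below every parental one, by a log2 change of -0.44 (SE 0.04, edgeR adjusted p = 2.47e-06), which is 1.36-fold and short of the 1.5-fold limit. Tested as an interaction, the log2 change in SUDHL16 minus that in SUDHL6 was 7.19 (SE 1.08, edgeR adjusted p = 0.00184), and this interaction was called in 12 of 12 fits that left out a library. The interaction test shares a spread estimate between the lines. Its SE is below the 1.30 of SUDHL16 fitted alone, so it may understate the spread of SUDHL16. Without CE-26 its edgeR adjusted p was 1.32e-07, and the fitted 10.40 depends on the prior count. Of all 19621 genes tested for such a difference, 7.16% were called, 4.34% higher and 2.81% lower in SUDHL16, and without CE-26 14.0%, 8.15% higher and 5.83% lower. Of the 9 members tested for it, 3 were called higher, *CD70*, *CD80* and *CD86*, and 5 without CE-26, with *CD58* and *LGALS9* added. The call within SUDHL16 was lost without CE-27 (log2 change 5.41, edgeR adjusted p = 0.0691), CE-28 (6.28, adjusted p = 0.115), CE-29 (6.38, adjusted p = 0.115) or CE-30 (6.19, adjusted p = 0.128). *CD27*, the gene of the receptor, was expressed by the B cells themselves, at a mean of 59.6 ± 2.17 CPM in parental and 68.8 ± 2.95 CPM in resistant SUDHL6 and 54.3 ± 13.9 and 58.4 ± 5.15 CPM in SUDHL16 (SD, n = 3).

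*CD80* and *CD86* encode the B7 proteins that CD28 and CTLA4 share as ligands, and lie on chromosome 3 at chr3:119524293-119559614 (minus strand) and chr3:122055362-122121139 (plus strand). *CD80* was at 10.9, 5.17 and 9.25 CPM in parental SUDHL16 and at 27.1, 23.9 and 77.0 CPM in the resistant libraries. *CD86* was at 56.7, 44.1 and 51.6 CPM and at 119, 102 and 232 CPM. For both genes the groups did not overlap, and CE-30 was the highest library by a wide margin. *CD80* rose by a log2 change of 2.30 (SE 0.51, edgeR adjusted p = 0.0382), or 4.91-fold, and *CD86* by 1.57 (SE 0.34, adjusted p = 0.0363), or 2.96-fold. Without CE-26 the log2 changes were 2.09 (edgeR adjusted p = 0.0405) and 1.49 (adjusted p = 0.0385).

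Neither B7 gene was called in SUDHL6. *CD80* stood at 23.6, 24.7 and 27.8 CPM in parental and 26, 27.4 and 26.3 CPM in resistant libraries, which overlap, with a log2 change of 0.06 (95% interval -0.08 to 0.21). *CD86* went from 52.5, 50.9 and 50.4 CPM to 57.7, 57.3 and 59.7 CPM, without overlap, a log2 change of 0.18 (SE 0.03, edgeR adjusted p = 5.17e-04) that is 1.14-fold. Between the lines, the log2 changes were apart by 2.22 for *CD80* (SE 0.58, edgeR adjusted p = 0.0408) and 1.41 for *CD86* (SE 0.39, adjusted p = 0.0499), and without CE-26 by 2.0 (adjusted p = 0.0385) and 1.27 (adjusted p = 0.0493). The SUDHL16 calls of both genes were lost when CE-25, CE-27, CE-28, CE-29 or CE-30 was left out, with edgeR adjusted p from 0.0739 to 0.118 for *CD80* and from 0.0717 to 0.109 for *CD86*. Their log2 changes without CE-30 were 1.57 and 1.12, and over the fits without 1 library they lay between 1.57 and 2.57 and between 1.12 and 1.78. The exons of *TIMMDC1* on the opposite strand cover 24.8% of the exon bases of *CD80*, and the strand setting of the counting is not given in the sources used here. *TIMMDC1* itself was at 55.1 to 58.6 CPM in resistant and 38.2 to 55.8 CPM in parental SUDHL16, with a log2 change of 0.20 (edgeR adjusted p = 0.712), or 0.06 (adjusted p = 0.904) without CE-26.

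*ICOSLG*, whose product binds ICOS on follicular helper T cells, lay lower in every resistant library of both lines than in every parental one. It spans chr21:44215382-44241446 on the minus strand. In SUDHL6 it stood at 22.3, 22 and 22.7 CPM in parental and 14.8, 14.2 and 12.7 CPM in resistant libraries, a log2 change of -0.69 (SE 0.07, edgeR adjusted p = 5.06e-06), 1.61-fold lower. In SUDHL16 the values were 114, 194 and 143 CPM against 99.1, 73.0 and 66.9 CPM. That difference of -0.91 (SE 0.29) had an unadjusted p of 0.0118 and an edgeR adjusted p of 0.121 and was not called, nor was it without CE-26 (-0.67, adjusted p = 0.140), which held the highest value. DESeq2 (adjusted p = 0.0309), limma voom with quality weights (0.0450) and a single fit of the 12 libraries (0.00679) called it lower. The changes of the lines differed by -0.17 (95% interval -0.71 to 0.37), and by -0.04 (-0.51 to 0.44) without CE-26.

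A near-identical annotated copy of *ICOSLG* (ENSG00000277117, chr21:5022531-5036771), marked in GENCODE 44 as an artefact of the assembly, shared 40.4% of the 100-base windows of the canonical transcript, so reads may have been split. It held 534, 542 and 679 reads in parental and 384, 337 and 284 reads in resistant SUDHL6. With its reads added, *ICOSLG* stood at 38.0, 38.0 and 39.4 CPM against 24.3, 22.5 and 20.5 CPM in SUDHL6 (log2 change -0.78, edgeR adjusted p = 6.15e-07) and at 180, 231 and 231 CPM against 155, 117 and 107 CPM in SUDHL16 (-0.76, adjusted p = 0.149, and -0.69, adjusted p = 0.129, without CE-26).

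*CD274* and *PDCD1LG2*, the genes of the PD-1 ligands, lie side by side at chr9:5450503-5470566 and chr9:5510531-5571282, both on the plus strand, and were close to silent in both lines. *CD274* had 11, 9 and 15 reads in parental and 15, 17 and 8 reads in resistant SUDHL6, which is at most 0.421 CPM in any of the 6 libraries. In SUDHL16 it had 6, 5 and 0 reads in parental and 0, 7 and 14 reads in resistant libraries. The groups overlapped in both lines. The log2 change in SUDHL6 was 0.08 with a 95% interval from -0.77 to 0.94 (edgeR adjusted p = 0.895), which reaches past 1.5-fold on both sides, so that a change of that size is not excluded, and in SUDHL16 the gene failed the filter on low counts. *PDCD1LG2* had 0, 3 and 6 reads in parental and 3, 4 and 0 reads in resistant SUDHL6 and 0 reads in all 6 SUDHL16 libraries, where a count of 0 allows up to 3 reads per library. Its receptor gene *PDCD1* had at most 2 reads in any SUDHL6 library and 0 in SUDHL16 other than CE-26, which had 19.

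The upstream stretch of *CD274* is shown because it holds letters of both an interferon and a STAT element, while its transcript stayed near 0. Of the 10 genes, 8 matched the RefSeq promoter sequences (GRCh38.p14, 250 bases before to 50 bases after the start), and *CD70* and *PDCD1LG2* did not. Searched on both strands, GAAA repeated after any 2 bases, the core of an interferon-stimulated response element (ISRE), occurred in 3.57% of all 35116 promoters. TTCNNNGAA, those of a STAT element, occurred in 7.66%, the NF-kB motif in 11.3% and the E-box CACGTG in 7.26%. The stretch of *CD274* at chr9:5450322-5450441 (plus strand), which holds no GENCODE 44 exon, has in capitals a pair of overlapping ISRE matches on the minus strand and a TTCNNNGAA match.
CD274: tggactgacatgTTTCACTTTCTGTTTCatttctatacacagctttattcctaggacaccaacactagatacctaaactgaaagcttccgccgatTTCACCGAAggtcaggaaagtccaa
A single ISRE match, on the minus strand, lies at the RefSeq start of *LGALS9*, within chr17:27631164-27631193 (plus strand), where GENCODE 44 also has exons of *LGALS9* transcripts that start earlier.
LGALS9: gccaagttgctttggTTTCTATTTCtttgt
Overlapping NF-kB matches lie before the RefSeq start of *TNFRSF14*, within chr1:2556276-2556305 (plus strand), in an exon of the antisense gene *TNFRSF14-AS1*.
TNFRSF14: atggactttGGGGGGCTCCCCcttctacag
The promoters of *CD80*, *CD86*, *ICOSLG*, *CD58* and *CD47* held none of these letters in this window. These matches are descriptions of letters and no factor binding was measured.

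*LGALS9*, which encodes galectin-9, was low in both parental lines and higher in every resistant library than in every parental library of its line. It lies at chr17:27629798-27649560 on the plus strand. In SUDHL6 it had 14, 11 and 17 reads in parental and 35, 46 and 36 reads in resistant libraries, or 0.411, 0.325 and 0.418 CPM against 0.870, 1.14 and 0.991 CPM. The log2 change was 1.37 (SE 0.27, edgeR adjusted p = 0.00165), or 2.58-fold, and it was called in 6 of 6 fits without 1 library. In SUDHL16 it had 0, 12 and 10 reads in parental and 129, 147 and 259 reads in resistant libraries, or 0, 4.13 and 0.621 CPM against 8.64, 6.92 and 11 CPM.

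With all SUDHL16 libraries the log2 change of *LGALS9* was 2.83 (SE 1.28, 95% interval -0.09 to 5.76, edgeR adjusted p = 0.277) and was not called. Without CE-26 it was 4.86 (SE 0.96, adjusted p = 0.0166) and called. As reads per library total the resistant libraries held 15.5 times the parental level (22 reads against 535, exact 95% interval 10.1 to 24.9, counting error only), and 30.1 times without CE-26 (16.2 to 63.1). The changes of the lines differed by 1.63 (95% interval -1.41 to 4.67, edgeR adjusted p = 0.559) with all libraries and by 3.48 (adjusted p = 0.0259) without CE-26. The close relatives *LGALS9B* and *LGALS9C* shared no 100-base window with *LGALS9* and held 0 reads except 2 in CE-11 and 16 in CE-26, and with their reads added the log2 change in SUDHL16 was 1.59 (edgeR adjusted p = 0.608). Without CE-26, the same sum gave 4.86 (adjusted p = 0.0166) and a call. The overlapping annotated gene ENSG00000266728, which shares 12.2% of such windows with *LGALS9*, had 0 reads in all libraries. *HAVCR2*, the TIM-3 gene, fell in SUDHL6 by 1.35 on the log2 scale (edgeR adjusted p = 1.62e-04), from 2.09 ± 0.284 to 0.820 ± 0.0904 CPM (SD, n = 3).

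*TNFRSF14* encodes HVEM, which binds BTLA on T and B cells and spans chr1:2555639-2565382 on the plus strand. It stood at 0.793, 0.679 and 0.664 CPM in parental SUDHL6 and at 1.02, 1.29 and 2.29 CPM in the resistant libraries, without overlap and with CE-12 the highest. The log2 change was 1.10 (SE 0.30, edgeR adjusted p = 0.0123), or 2.14-fold, and without CE-12 it was 0.70 (adjusted p = 0.0679) and not called. In SUDHL16 it stood at 2.2, 7.58 and 3.54 CPM in parental and 7.17, 8.85 and 6.30 CPM in resistant libraries. These groups overlapped through CE-26, and the log2 change was 0.80 (95% interval -0.45 to 2.05, edgeR adjusted p = 0.487), or 1.38 (0.41 to 2.35, adjusted p = 0.0820) without CE-26. The changes of the lines differed by -0.21 (95% interval -1.58 to 1.15), and by 0.25 (-0.86 to 1.36) without CE-26.

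The antisense gene *TNFRSF14-AS1* overlaps 13.3% of the exon bases of *TNFRSF14*. It went from a mean of 0.311 to 0.602 CPM in SUDHL6 (log2 change 0.94, edgeR adjusted p = 0.0390). In SUDHL16 it was at 0 in CE-25 and CE-27, at 6.89 CPM in CE-26 and at 1.65 to 5.56 CPM in the resistant libraries. The groups overlapped through CE-26, with an edgeR adjusted p of 0.834 with all libraries and 0.00661 without CE-26. In the fit without CE-26 *TNFRSF14-AS1* could pass the filter only through the resistant libraries. Its part in the *TNFRSF14* counts was not tested.

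*CD58*, the gene of the adhesion ligand LFA-3 of CD2, lies at chr1:116514534-116571039 on the minus strand and was expressed at a few CPM in all 4 groups. In parental SUDHL16 it stood at 1.43, 5.17 and 1.06 CPM and in resistant SUDHL16 at 3.89, 6.54 and 8.93 CPM. The groups overlapped only through CE-26, whose 5.17 CPM are 15 reads. The log2 change was 1.46 (SE 0.72, 95% interval -0.19 to 3.11, edgeR adjusted p = 0.325) with all libraries and 2.38 (SE 0.53, adjusted p = 0.0271) without CE-26. In SUDHL6 it stood at 4.2, 3.98 and 3.51 CPM against 4.03, 4.43 and 4.43 CPM, which overlap, with a log2 change of 0.14 (95% interval -0.12 to 0.41). The difference between the lines was 1.48 (edgeR adjusted p = 0.243) with all libraries and 2.21 (adjusted p = 0.00834) without CE-26.

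*CD47*, the signal to macrophages against engulfment, was among the most expressed members in each group and differed least. It lies at chr3:108043091-108091862 on the minus strand. It stood at 98.1, 97.0 and 98.6 CPM in parental and 93.6, 96.9 and 99.2 CPM in resistant SUDHL6, with a log2 change of -0.02 (95% interval -0.08 to 0.04). In SUDHL16 it stood at 217, 163 and 198 CPM against 193, 240 and 173 CPM, with a log2 change of 0.07 (95% interval -0.51 to 0.65), which upper-quartile scaling turned to -0.02 and leaving out CE-26 to -0.03. The groups overlapped in both lines. Its macrophage receptor gene *SIRPA* was at 3.12 ± 0.205 and 2.22 ± 0.212 CPM in parental and resistant SUDHL6 (SD, n = 3) and at 0 reads in SUDHL16 other than CE-26, which had 10.

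Levels of different genes were compared per length of the canonical transcript (RPKM, the CPM value divided by that length in kilobases). In parental SUDHL6 the order of mean levels was *CD70* at 54.8 ± 1.92 RPKM, *CD86* at 18.8 ± 0.393, *CD47* at 18.5 ± 0.162, *CD80* at 9.28 ± 0.806, *CD58* at 3.59 ± 0.323, *ICOSLG* at 3.16 ± 0.0456, *TNFRSF14* at 0.418 ± 0.0416, *LGALS9* at 0.223 ± 0.0302, *CD274* at 0.0878 ± 0.0142 and *PDCD1LG2* at 0.0323 ± 0.0305 RPKM (SD, n = 3). Of these neighbours, *CD86* and *CD47* did not differ beyond their spread. Resistant SUDHL6 kept this order, with *CD70* at 40.3 ± 1.11 RPKM on top.

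Parental SUDHL16 was ordered otherwise, with *CD47* at 36.4 ± 5.15 RPKM above *ICOSLG* at 21.2 ± 5.73 and *CD86* at 18.7 ± 2.33 RPKM, of which *ICOSLG* and *CD86* did not differ beyond their spread. *CD80* at 3.08 ± 1.07, *TNFRSF14* at 2.61 ± 1.64, *CD58* at 2.35 ± 2.09, *CD70* at 1.94 ± 3.24 and *LGALS9* at 0.919 ± 1.29 RPKM followed and overlapped, and without CE-26 the mean of *CD70* was 0.0724 RPKM. Of these genes, *TNFRSF14*, *CD58*, *CD70* and *LGALS9* had their highest parental value in CE-26, so their means and order depend on that library. Resistant SUDHL16 had *CD70* at 70.6 ± 10.8 RPKM, *CD86* at 55.5 ± 26.1, *CD47* at 38.2 ± 6.51, *CD80* at 15.6 ± 10.9, *ICOSLG* at 11.3 ± 2.42, *CD58* at 5.94 ± 2.32, *LGALS9* at 5.14 ± 1.19 and *TNFRSF14* at 4.37 ± 0.762 RPKM (SD, n = 3). By its mean with CE-26 included, *CD70* went from below 6 members in parental SUDHL16 to the top of the order, where *CD86* overlapped it. With the length of all annotated exons in place of the canonical transcript, *ICOSLG* in parental SUDHL16 was at 7.72 RPKM, below *CD86* at 14.8 RPKM.

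**Figure D3:**
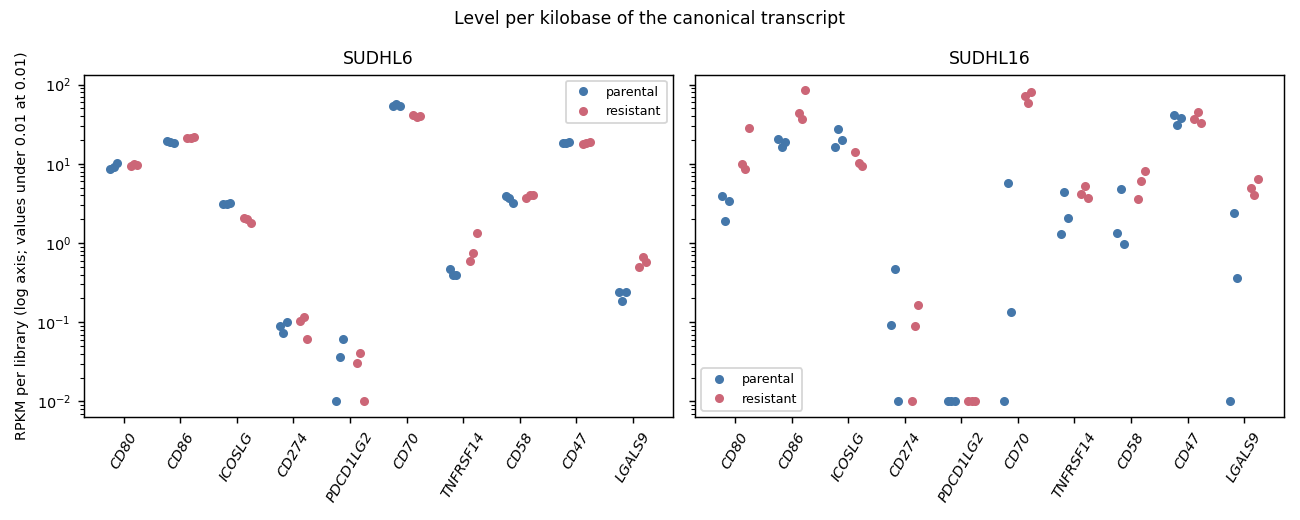
Level of each gene per kilobase of its canonical transcript in every library (RPKM, log axis), parental beside resistant in each line, with values under 0.01 drawn at 0.01. *CD70* is the highest gene in both states of SUDHL6 and by its mean of 70.6 RPKM in resistant SUDHL16, while *CD274* and *PDCD1LG2* have the lowest means in all 4 groups. In the single library CE-25, *CD274* lies above *CD70* and *LGALS9*.

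The genes around the members on the chromosome had changes centred close to 0. The median log2 change of the tested protein-coding genes within 1 Mb of a member was -0.19 to 0.05 for the SUDHL6 comparison and -0.28 to 0.16 for SUDHL16, over 4 to 40 neighbours a member. Without CE-26 it was -0.23 to 0.16 for SUDHL16. Around *CD70*, 34 neighbours were tested in SUDHL16, with a median of 0.07, a highest change of 1.15 and 2 called higher. Without CE-26, 36 were tested, with a median of 0.16 and again 2 called higher. The highest change there was 7.49 for *CRB3*, which was not called (edgeR adjusted p = 0.126) and not tested with all libraries. Around *CD80* the median was 0.16 over 10 neighbours with 1 called higher, and around *CD86* it was 0.05 over 19 with 3 called higher. Without CE-26 these medians were 0.06 and 0.11, with 1 and 4 called higher, and that around *TNFRSF14* went from -0.28 to 0.12. Of all genes tested, 3.20% were called higher in SUDHL16 and 6.73% without CE-26. Around *ICOSLG* in SUDHL6, the median was -0.19 over 20 neighbours, with 15 below 0 and 2 called lower, beside 4.65% of all genes called lower.

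**Figure D4:**
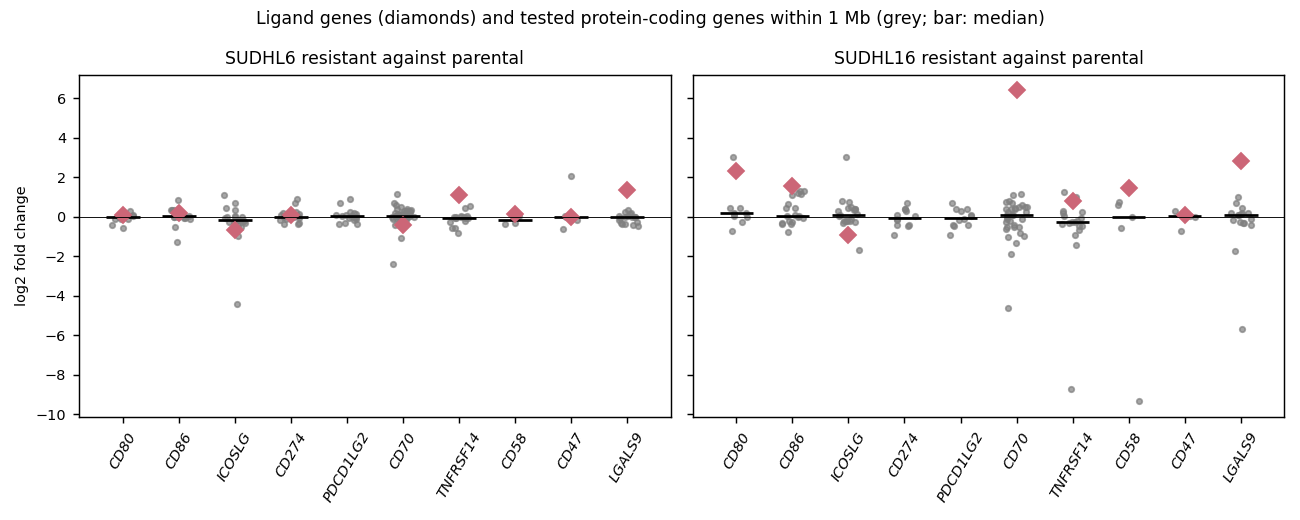
The log2 change of each gene (diamonds) beside those of the tested protein-coding genes within 1 Mb of it (grey points, with a bar at their median), in SUDHL6 on the left and SUDHL16 on the right. The *CD70* diamond at 6.40 stands above all 34 of its neighbours in SUDHL16 with all libraries, whose highest is at 1.15. In the fit without CE-26, not drawn here, *CD70* was at 9.96 and the highest of 36 neighbours, *CRB3*, at 7.49 but not called (edgeR adjusted p = 0.126).

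Related ligand families, taken from lists written from general knowledge, were counted in the same fits, beside which stand the shares of all genes called, 8.96% in SUDHL6, 5.30% in SUDHL16 and 10.0% without CE-26. *VSIR*, *MICA* and *BATF* of these lists had 0 reads in CE-25 and CE-27 and without CE-26 could pass the filter only through the resistant libraries, so counts that hold them describe the tested genes and are no test of a list. Of 10 other B7 and butyrophilin genes, *BTN3A3* (log2 change 0.84, edgeR adjusted p = 0.00100) and *BTN3A2* (0.63, adjusted p = 3.29e-05) rose in SUDHL6, which is 2 higher and 0 lower of 6 tested. In SUDHL16 *NCR3LG1*, which encodes the ligand B7-H6 of an NK cell receptor, rose (1.85, adjusted p = 0.0238, and 1.97, adjusted p = 0.0131, without CE-26), which is 1 of 7 tested, and 3 of 7 were called higher without CE-26, *VSIR* among them. The additional calls were *BTN2A2*, with a log2 change of 1.46 (edgeR adjusted p = 0.0294), and *VSIR*, the gene of the checkpoint protein VISTA. *VSIR* had 16 reads in CE-26, against 131, 182 and 392 reads, or 8.77, 8.56 and 16.7 CPM, in the resistant libraries.

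Of 7 other TNF superfamily genes, *CD40* and *TNFSF9* (the ligand 4-1BBL) were called in both lines. *TNFSF9* rose in both, by 0.67 in SUDHL6 (edgeR adjusted p = 3.01e-07) and 1.15 in SUDHL16 (adjusted p = 0.0372, and 1.16, adjusted p = 0.0293, without CE-26). *CD40*, the receptor through which T cells help B cells, fell by 0.59 on the log2 scale in SUDHL6 (edgeR adjusted p = 5.10e-08), from 83.5 ± 1.90 to 55.5 ± 2.45 CPM. It rose by 1.97 in SUDHL16 (adjusted p = 0.0126), from 50.4 ± 15.1 to 199 ± 57.7 CPM (SD, n = 3), and the log2 changes of the lines differed by 2.58 (edgeR adjusted p = 0.00153). Without CE-26 the rise was 1.76 (adjusted p = 0.00580) and the difference 2.32 (adjusted p = 1.77e-04). For *TNFSF9* the lines differed by 0.51 (95% interval -0.02 to 1.03), or 0.45 (-0.06 to 0.95) without CE-26. That makes 1 higher and 1 lower of 4 tested in SUDHL6 and 2 higher of 4 in SUDHL16, with or without CE-26.

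Of 11 SLAM family, nectin and CD200 genes with *ICAM1*, 1 was called higher and 2 lower of 9 tested in SUDHL6 and 1 higher of 6 in SUDHL16. *ICAM1*, an adhesion ligand of T cell integrins, fell in SUDHL6 (-0.68, edgeR adjusted p = 8.13e-09) and rose in SUDHL16 (1.98, adjusted p = 0.0104), a difference between the lines of 2.72 (adjusted p = 1.70e-04). Without CE-26 the rise was 2.31 (edgeR adjusted p = 0.00113) and the difference 2.95 (adjusted p = 7.06e-06). *LY9* fell in SUDHL6 (-0.95, adjusted p = 0.00281) and was called higher in SUDHL16 without CE-26 (2.04, adjusted p = 0.00264), which brings that count to 2 of 7. *PVR*, the gene of a ligand of TIGIT, rose in SUDHL6 from 0.187 to 0.459 CPM (1.25, adjusted p = 0.0392). Of 7 NK cell receptor ligands, 0 of 6 tested were called in either line by edgeR, where 4 in SUDHL6 and 2 in SUDHL16 had an unadjusted p under 0.05. Without CE-26, *CLEC2D* (1.89, edgeR adjusted p = 0.0222) and *MICA* (adjusted p = 0.0360) were called higher, 2 of 7, the latter from 0 reads in all 3 parental libraries to 25, 20 and 13.

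Of 13 genes known to act on *CD274* or *CD47*, 3 of 12 tested rose in SUDHL16 and the other 9 were not called, where 5.30% of all genes were called and *CD274* stayed near 0. The 3 were *STAT3* (log2 change 2.0, edgeR adjusted p = 0.00368) and *IRF1* (2.40, adjusted p = 0.0248), transcription factors of the cytokine and interferon responses, and *HIP1R* (1.15, adjusted p = 0.0264), whose product carries PD-L1 protein to the lysosome. *STAT3* went from 34.9 ± 2.92 to 139 ± 30.6 CPM and *IRF1* from 6.57 ± 4.18 to 32.3 ± 9.44 CPM (SD, n = 3). Without CE-26 the log2 changes were 2.05 for *STAT3* (edgeR adjusted p = 0.00194), 2.96 for *IRF1* (adjusted p = 0.00137) and 1.11 for *HIP1R* (adjusted p = 0.0201), and *BATF* was added, which makes 4 of 12 beside 10.0% of all genes. In SUDHL6, 0 of 13 were called by edgeR, 7 of them with an unadjusted p under 0.05.

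**Figure D5:**
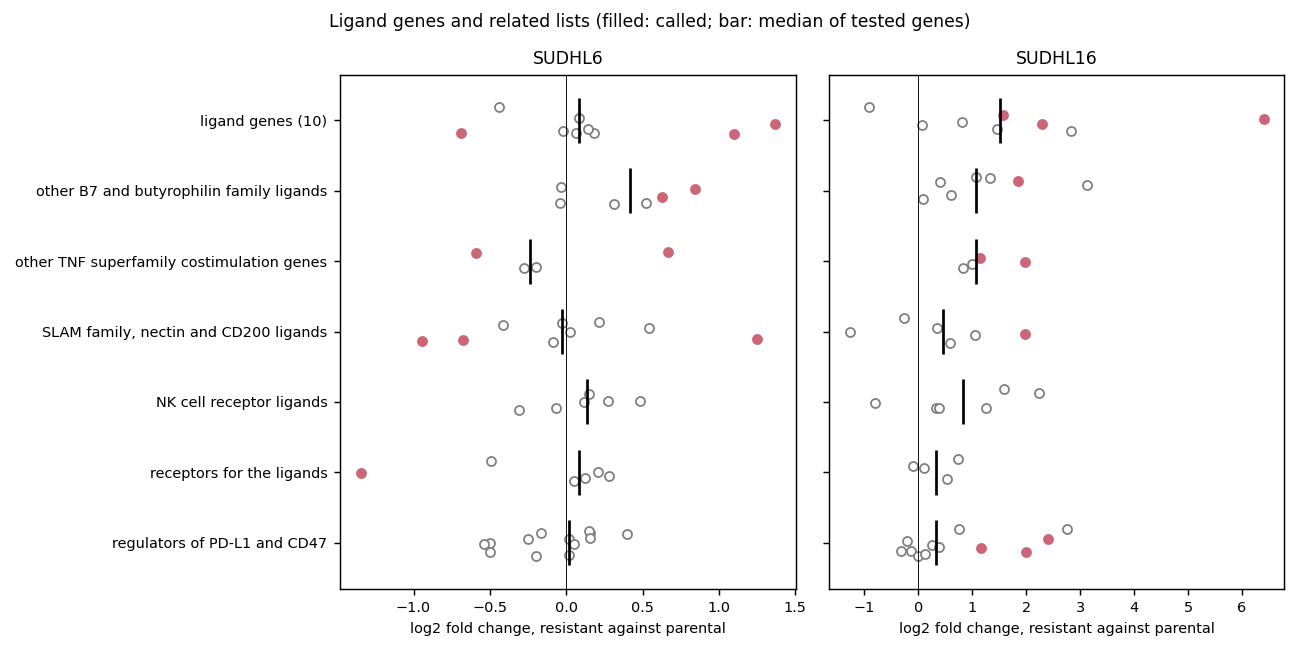
The log2 change of every tested gene of the 10 ligand genes and of 6 related lists, resistant against parental, in SUDHL6 (left) and SUDHL16 (right, all libraries, wider axis), with called genes filled and a bar at each list's median. In SUDHL16 the median of the ligand genes is 1.51 and that of the other TNF superfamily genes 1.07, beside -0.02 for all genes, and *CD70* at 6.40 is the point farthest right.

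Among 15 receptor genes of these ligands, *CD27* was the only one with a mean above 10 CPM in any group. *BTLA*, the receptor gene for HVEM, was at 2.72 ± 0.381 and 2.95 ± 0.207 CPM in parental and resistant SUDHL6, and *TIGIT* at 7.32 ± 1.70 and 6.75 ± 1.60 CPM in parental and resistant SUDHL16 (SD, n = 3). At most 3 reads in every library were found for 7 of the 15 in SUDHL6 and, CE-26 left out, for 11 of the 15 in SUDHL16, *CTLA4*, *ICOS* and *PDCD1* among them in both. By edgeR, 1 of 6 tested was called in SUDHL6, *HAVCR2*, and 0 of 4 in SUDHL16, with 0 at an unadjusted p under 0.05. Without CE-26 it was again 0 of 4, with 2 at an unadjusted p under 0.05, *HAVCR2* and *SIRPG* (edgeR adjusted p = 0.122 and 0.123).

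Markers of other blood cells were measured beside these changes. The shares of all genes called were 8.96% in SUDHL6, 5.30% in SUDHL16 and 10.0% without CE-26. For the difference between the lines the share was 7.16%, and 14.0% without CE-26. The summed level of 5 T cell markers was 0.118 to 0.469 CPM in SUDHL6, 1.49 to 2.86 CPM in CE-25 and CE-27, 14.8 CPM in CE-26 and 11.7 to 13.8 CPM in resistant SUDHL16. The last was nearly all *CD3E* (12.4 ± 1.39 CPM, log2 change 2.59, edgeR adjusted p = 0.0455, and 3.34, adjusted p = 0.00131, without CE-26), with *CD3D* and *CD5* at 0 reads in all 3 resistant libraries and *CD8A* at 3 or fewer. The fifth marker, *CD3G*, had more than 3 reads in at least 1 SUDHL16 library other than CE-26. Of the T cell markers, 2 were tested in SUDHL16 and 1 was called higher, with or without CE-26. Summed levels of 4 NK cell markers were 25.1 CPM in CE-26 and at most 1.12 CPM elsewhere, and those of 5 myeloid markers 12.1 CPM in CE-26 and at most 1.24 CPM elsewhere. In resistant SUDHL16, *LYZ*, *ITGAM*, *FCGR3A*, *NCAM1*, *KLRD1* and *GNLY* were at 0 reads. The rest of these lists, *CD14*, *CSF1R* and *NKG7*, held up to 8 summed myeloid reads and up to 4 NK reads in a resistant library. Without CE-26 *KLRD1* was called lower from 10 and 16 reads in CE-25 and CE-27 (edgeR adjusted p = 0.0475). In that fit *KLRD1* could pass the filter only through these parental libraries. Of 4 plasma cell markers, *XBP1* (log2 change 2.47, edgeR adjusted p = 0.0102) and *PRDM1* (0 to 2 reads against 140 to 269, adjusted p = 0.0169) rose in SUDHL16, which is 2 of 2 tested, and *SDC1* was at 0 in the resistant libraries. Without CE-26, 3 of 3 tested were called higher, *XBP1* (2.50, edgeR adjusted p = 0.00987), *PRDM1* (adjusted p = 3.83e-04) and *TNFRSF17*, the BCMA gene, with 0 reads in all 3 parental libraries and 9, 15 and 24 in the resistant ones (adjusted p = 0.0413). *PRDM1* and *TNFRSF17* could pass the filter only through the resistant libraries. In SUDHL6 *XBP1* fell by 0.96 (edgeR adjusted p = 8.37e-07), and *TNFRSF17* had a log2 change of 0.24, short of 1.5-fold. Of 4 germinal centre markers, *LMO2* (1.86, edgeR adjusted p = 1.50e-08) and *MYBL1* (0.98, adjusted p = 1.28e-11) rose and *MME* (-1.02, adjusted p = 3.92e-10) fell in SUDHL6, while *BCL6* had 0.56, short of 1.5-fold. In SUDHL16, 0 of 4 were called with or without CE-26, with 0 and 1 at an unadjusted p under 0.05. Between the lines 1 was called higher in SUDHL16, *MME*, and 2 lower, *LMO2* and *MYBL1*, and without CE-26 also *BCL6*. The part of these markers in the ligand results was not tested.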

How the data were processed

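The authors trimmed reads with Trim Galore, aligned them to GRCh38 with HISAT2, ran StringTie and deposited, per library, unnormalized counts of reads per gene. The counting tool, annotation and strand setting are not given in the sources used here, so overlapping genes could share reads. Groups came from the labels, and libraries are named by title. Of 60675 identifiers, 56558 matched GENCODE 44.

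Each line was fitted alone with edgeR 4.0.16 (R 4.3.3) on the counts, with filterByExpr, TMM scaling and the two-sided quasi-likelihood test, and p-values were adjusted over all genes. Calls needed adjusted p under 0.05 and 1.5-fold, and the line difference was the interaction over 12 libraries. Each SE was derived from the test, as the absolute log2 change divided by the square root of its F statistic. The 95% intervals of log2 changes are symmetric around the fitted change with that SE, and are approximate for genes with few reads in a group. The precision of low genes is limited by depth, and exact read-ratio intervals (95%) and the floor of 3 counts cover counting error only. Alternatives were DESeq2 1.42.0, limma 3.58.1 voom, other scalings, filters and tests, summed copies, and each library left out.

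All members were named, with at most 3 calls per related list and line (smallest adjusted p), and receptors and markers above 1 CPM in a group mean. Members and lists were chosen with earlier results of these data known. *HAVCR2*, *PDCD1*, *CTLA4*, *ICOS*, *TIMMDC1*, *CRB3* and the overlapping genes were named after their values were seen. So were the markers at 0 and the other NK cell and myeloid markers. Figures used matplotlib 3.10.9. A result for a gene among the B cell markers is not reported here.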

Additional observations from a re-analysis of the deposited data

Results flagged for a closer look

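The change with resistance differed between the lines by its own test (edgeR interaction of line and resistance) for 3 of the ligand genes. That is 3 of the 9 tested, beside 7.16% of all 19621 genes tested, 4.34% higher and 2.81% lower in SUDHL16. For *CD70* the log2 change in SUDHL16 minus that of SUDHL6 was 7.19 (adjusted p = 0.00184), with 3 of 3 resistant libraries above every parental library in SUDHL16 and 3 of 3 below in SUDHL6. For *CD80* it was 2.22 (adjusted p = 0.0408) and for *CD86* 1.41 (adjusted p = 0.0499). The interactions of *CD80* and *CD86* were called in 5 and 4 of 12 fits without 1 library, and that of *CD70* in 12 of 12. All interaction tests share a spread estimate between the lines, so the spread of SUDHL16 may be understated. The lines also differ in kit and instrument, from which these differences cannot be told apart.
The germinal centre markers and *TNFRSF17* are left out of the following list. Of the other related genes named above, the same test found differences, all higher in SUDHL16, of 1.93 for *NCR3LG1* (adjusted p = 0.00395), 1.41 for *BTN2A2* (0.00578), 2.58 for *CD40* (0.00153), 2.72 for *ICAM1* (1.70e-04), 1.75 for *CLEC2D* (0.0242), 1.38 for *HIP1R* (0.00246), 1.89 for *STAT3* (6.11e-04), 2.34 for *IRF1* (0.00944) and 3.45 for *XBP1* (6.29e-04). Fitted differences of 7.13 for *MICA* (0.00418) and 8.22 for *PRDM1* (0.00535) depend on the prior count, since parental SUDHL16 held 0 and at most 2 reads of these genes in a library. Without CE-26 each of the differences above was again called, all higher in SUDHL16. With all libraries, the calls were 2 of 8 tested B7 and butyrophilin genes, 1 of 5 TNF superfamily genes and 1 of 9 SLAM list genes. They were also 2 of 7 NK cell receptor ligands, 3 of 13 genes acting on *CD274* or *CD47* and 3 of 4 plasma cell markers. Without CE-26 the SLAM family, nectin and CD200 list had 3 higher and 1 lower of 9, beside 14.0% of all genes called. Among the germinal centre markers, with all libraries, 1 was called higher in SUDHL16, *MME*, and 2 lower, *LMO2* and *MYBL1*.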

How the results depend on the processing

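No paired analysis was possible because the labels carry no replicate numbers. The 3 members called in SUDHL6 became 0 with glmTreat and 0 in a single fit of the 12 libraries, and 2 to 3 with 1 library left out. The 3 called in SUDHL16 became 1 with glmTreat and 7 with limma voom, and 0 to 5 with 1 library left out. The 3 that differed between the lines became 1 with library totals, 1 with no filter on low counts and 5 with limma voom, and 1 to 5 with 1 library left out. The single fit and the interaction share a spread estimate between the lines, which was 0.0516 (BCV) in SUDHL6 and 0.468 in SUDHL16 when each was fitted alone. Fits without a library have fewer samples, while for the other settings the cause was not tested. Over all genes, 1493 calls in SUDHL6 ranged from 140 to 1541, 833 in SUDHL16 from 279 to 2855 and 1404 for the difference from 830 to 2933, of which 60.7% were higher, against 48.6% with DESeq2. Upper-quartile scaling moved the median of all genes in SUDHL16 to -0.11, library totals to 0.11 and no filter to -1.18. *TNFRSF14* in SUDHL6 lost its call with no filter (edgeR adjusted p = 0.0502), *CD70* in SUDHL16 with DESeq2 (log2 change 5.19, adjusted p = 0.0596), and *CD86* in SUDHL16 with library totals (1.68, edgeR adjusted p = 0.0536), which leaves 2 called there. Reversals touched uncalled values only. *CD274* in SUDHL6 ranged from -0.10 to 0.30 with 1 library left out (-0.03 without CE-8), *CD47* in SUDHL6 from -0.040 to 0.0019 and *CD47* in SUDHL16 from -0.078 to 0.18 (-0.026 without CE-26), and the latter became -0.024 with upper-quartile scaling. Of the differences between lines with 1 library left out, *CD47* ranged from -0.049 to 0.28 (-0.0066 without CE-29), *CD274* from -1.56 to 0.80 and *TNFRSF14* from -0.48 to 0.25 (0.19 without CE-12). *CD47* became -0.027 with upper-quartile scaling, and with voom *CD274* became 0.71 and *TNFRSF14* 0.37. The fits with copies summed and CE-26 left out, the lists without CE-26 and the all-exon lengths were added after seeing the data. Depth limits *CD274* and *PDCD1LG2*, with at most 17 reads in any library.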
